A study of Mus musculus with 24 samples.

Results

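The 6 genes Cd74, H2-Aa, H2-Ab1, H2-Eb1, H2-DMa and Ciita, which serve antigen presentation by major histocompatibility complex (MHC) class II, were followed through the lungs of mice given diesel exhaust particles, the allergen ovalbumin (OVA), or both. They were taken by name: every probe set annotated to exactly 1 of these symbols was collected, which gave 10 of the 22690 probe sets, and for each gene the probe set with the highest mean log2 intensity over all arrays was used. All 6 were measured, out of 12393 genes. The animals were female BALB/C mice aged 8 to 10 weeks, in 8 groups of 3, and each dose was instilled into the nose on days 0 and 13. Lungs were taken 18 hours after the second dose, and RNA from frozen whole lung was hybridised to 1 Affymetrix array per mouse. The groups were NDEP with OVA, ADEP with OVA, CDEP with OVA, OVA alone, NDEP alone, ADEP alone, CDEP alone and saline. NDEP, ADEP and CDEP are 3 chemically distinct diesel particle samples, whose letters the labels do not spell out, at 150 ug per dose, and OVA was given at 20 ug per dose. The 4 OVA groups are labelled as sensitized and the other 4 as not sensitized. The saline-treated mice carried neither agent, and all 8 groups shared strain, sex, age range and route.

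MHC class II molecules hold peptides cut from engulfed protein and show them to CD4 T cells. H2-Aa and H2-Ab1 encode the alpha and beta chains of I-A, and H2-Eb1 encodes the beta chain of I-E. Cd74, the invariant chain, fills the binding groove and steers new class II molecules to endosomes, where cathepsins trim it away. H2-DMa encodes a chain of H2-DM, which exchanges the remaining Cd74 fragment for antigen peptide. Ciita is the co-activator that class II genes depend on, and interferon gamma is its best known inducer. In the lung, dendritic cells, B cells, macrophages and alveolar type 2 cells carry class II molecules.

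Ciita does not bind DNA itself. It docks on factors that sit on the X box (the RFX complex) and on the Y box (NF-Y) just upstream of class II genes, and the stretch that holds these boxes is shown for an I-A and an I-E chain because it is the part of the gene on which Ciita acts. The RefSeq promoter table (GRCm38.p6) held windows for 3 of the 6 genes, namely H2-Aa, H2-Eb1 and H2-DMa. Its letters are those of the C57BL/6J reference genome and were not read from the BALB/C mice used here, in which they may differ. The 150 bases before the annotated start are printed 5′ to 3′ on the strand of the gene, for H2-Aa at chr17:34287824-34287973 on the minus strand and for H2-Eb1 at chr17:34305717-34305866 on the plus strand. Capitals mark GCAAC, a core of the X box, and CTGATTGG, the inverted CCAAT of the Y box.
H2-Aa: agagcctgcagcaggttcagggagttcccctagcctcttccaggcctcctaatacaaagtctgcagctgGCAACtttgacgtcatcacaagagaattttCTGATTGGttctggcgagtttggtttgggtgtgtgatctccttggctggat
H2-Eb1: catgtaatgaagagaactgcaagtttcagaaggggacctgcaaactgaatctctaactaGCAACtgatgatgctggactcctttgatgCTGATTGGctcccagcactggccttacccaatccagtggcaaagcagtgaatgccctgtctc
The Y box began 51 bases before the start of H2-Aa and 62 bases before that of H2-Eb1, with 25 and 24 bases between it and the X box core. The core followed within 40 bases by CTGATTGG on the same strand occurred in 53 of the 32851 promoter windows of the table, searched on both strands, or 0.161%. CTGATTGG alone occurred in 4.097% of windows and the core alone in 35.207%. The H2-DMa windows held no CTGATTGG. These letters were chosen after the windows had been seen, and a match is a description of the sequence.

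In the deposited values the array medians lay between 72.2 and 75.5 intensity units. The 5 genes used to check that the tissue was lung averaged between 11.17 and 11.61 log2 intensity on every array, and all 5 lay above the 25th percentile of each array, which stood at 4.45 to 4.64. Nothing in the labels marks a processing batch. Markers of heart muscle, which can be cut out with the lung, did vary. Their mean over 12 genes was 7.24 to 7.61 log2 intensity in CDEP with OVA and 7.46 to 7.91 in NDEP with OVA, against 8.14 to 8.36 in OVA and 8.24 to 8.98 in saline.

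Probe set signals differed widely among the 6 genes. Cd74 had the highest probe set signal, with a geometric mean intensity of 3242 over the 24 arrays, above at least 98.71% of probe sets on each array. H2-Aa averaged 2045, H2-Ab1 averaged 1090.3 and H2-Eb1 averaged 972, and H2-DMa averaged 249. Ciita averaged 35.0 and was above the 25th percentile on 23 of 24 arrays. Signals of different probe sets depend on their probes, so these values describe signal and do not rank transcript amounts.

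Every one of the 6 genes had its lowest group mean in saline. On the log2 intensity scale (mean ± SD, n = 3 mice per group), Cd74 was 11.94 ± 0.26 in NDEP with OVA, 11.71 ± 0.11 in ADEP with OVA, 11.87 ± 0.23 in CDEP with OVA and 11.47 ± 0.05 in OVA. Without OVA it was 11.88 ± 0.07 in NDEP, 11.55 ± 0.15 in ADEP, 11.66 ± 0.15 in CDEP and 11.22 ± 0.21 in saline. NDEP with OVA had the highest mean for H2-Aa, H2-Ab1, H2-Eb1, Cd74 and H2-DMa, and CDEP with OVA for Ciita. In the order of the group means, most neighbours overlapped. The exceptions were the step between OVA and saline for H2-Aa, H2-Ab1 and Cd74, the step between NDEP and CDEP for H2-Ab1, and for H2-DMa the steps between NDEP and ADEP with OVA and between ADEP and OVA. A moderated F test in limma for any difference among the 8 groups called 5 of 6 genes, against 7.61% of all genes tested. Its adjusted p was 0.002839 for H2-Ab1, 0.003641 for H2-Eb1, 0.005948 for Cd74, 0.006405 for H2-DMa, 0.03262 for Ciita and 0.0619 for H2-Aa. With the heart and fat marker means added to the model as covariates, which was tried after the data had been seen, this test called 0 of 6.

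**Figure D1:**
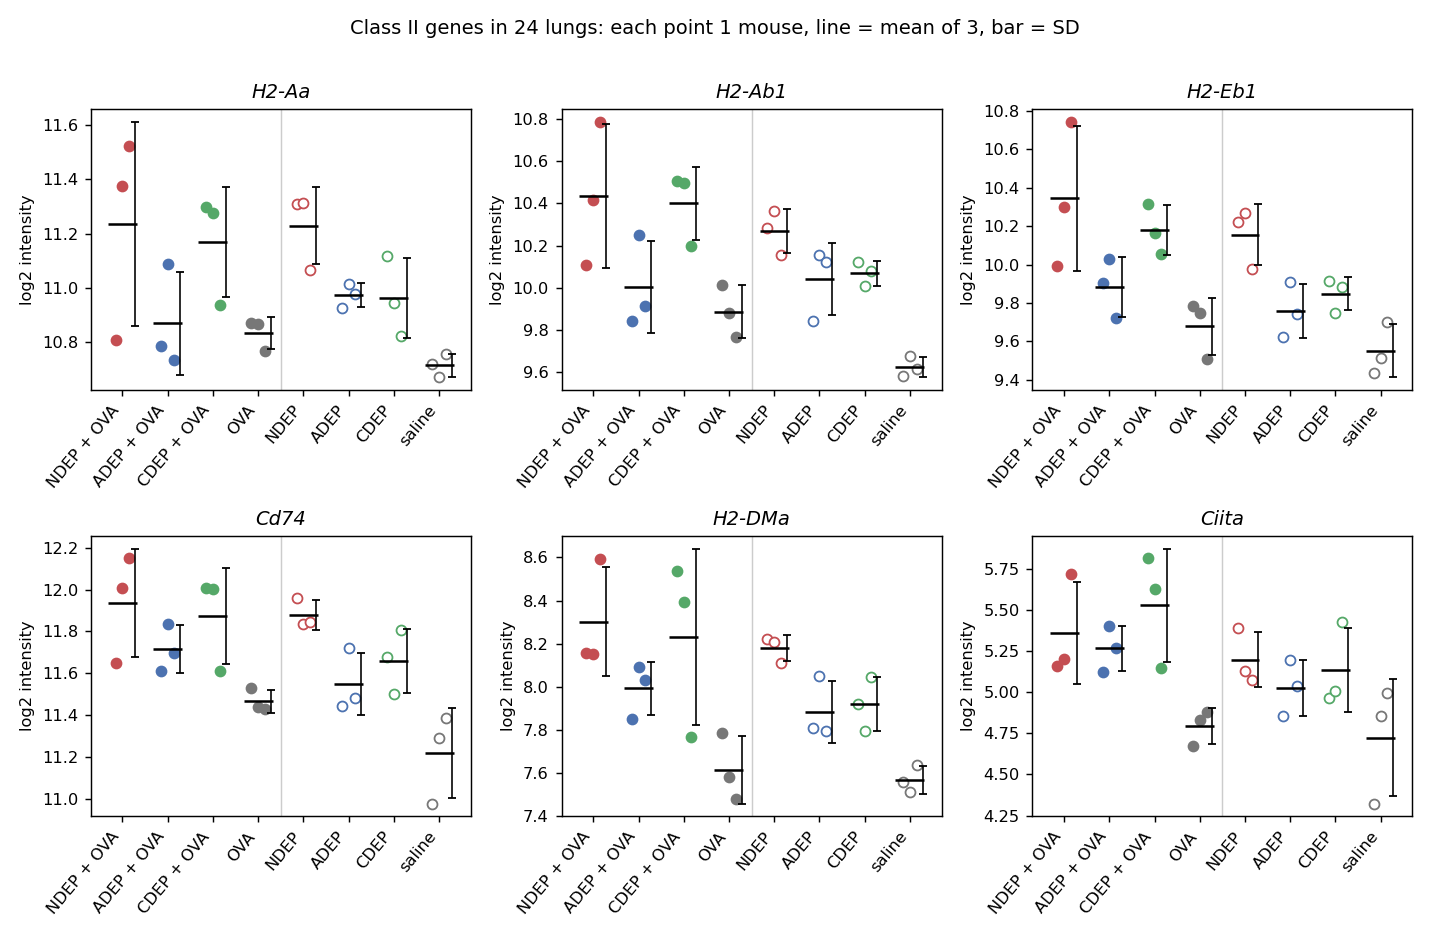
Log2 intensity (vertical axis) of each of the 6 genes in the 24 lungs, with 1 point per mouse, a line at the mean of 3 and a bar of 1 SD. Filled points are groups given OVA and open points are groups not given OVA. The saline mean is the lowest in every panel, and the 3 mice given NDEP with OVA are spread widely, from 10.81 to 11.52 for H2-Aa.

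NDEP without OVA raised 5 of the 6 class II genes above saline. H2-Aa, H2-Ab1 and H2-Eb1, the I-A and I-E chains, rose 1.43-fold, 1.56-fold and 1.52-fold. Cd74 rose 1.58-fold and H2-DMa rose 1.53-fold, while Ciita stood 1.39-fold above saline without passing the test. Across all genes, 2.25% were called higher in this comparison. In the NDEP lungs H2-Aa had intensities of 2539, 2543 and 2143, against 1683, 1630.25 and 1727 in the saline lungs. H2-Ab1 had 1244, 1318 and 1141 in NDEP lungs, against 766, 817 and 784 in saline lungs. For H2-Eb1 the NDEP lungs read 1195, 1235 and 1007, against 693, 732 and 833 in the saline lungs. All 3 NDEP mice were above all 3 saline mice for each chain.

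The same separation held for the other 3 genes. Cd74 had intensities of 3984, 3652 and 3675 in NDEP lungs, against 2018, 2508 and 2680.1 in saline lungs. H2-DMa read 298, 295 and 276 in NDEP lungs, against 188, 182 and 199 in saline lungs. Ciita read 42.0, 34.9 and 33.7 in NDEP lungs, against 20.0, 28.9 and 31.9 in saline lungs, where the first saline mouse was far below the others. Groups that did not overlap in this direction were seen in 6 of 6 class II genes and in 10.8% of all genes. The log2 fold changes were 0.66 ± 0.13 for Cd74 (SE, limma, adjusted p = 0.005294), 0.64 ± 0.14 for H2-Ab1 (adjusted p = 0.008945) and 0.61 ± 0.14 for H2-Eb1 (adjusted p = 0.01712). H2-DMa changed by 0.61 ± 0.15 (adjusted p = 0.02225), H2-Aa by 0.52 ± 0.14 (adjusted p = 0.04421) and Ciita by 0.47 ± 0.18 (adjusted p = 0.173). The median over the 6 genes was 0.61, beside 0.00 over all genes.

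These calls changed when single mice were left out. Without saline mouse 1, H2-Ab1 alone of the 6 stayed called, without NDEP mouse 1 or 2 the count was 2, and without NDEP mouse 3 or saline mouse 2 it was 3. H2-Aa stood closest to the threshold: its call was lost without any 1 of 13 of the 24 arrays, 7 of them in groups outside the comparison, with a second quantile normalization (limma, adjusted p = 0.05686) and when only the compared groups were fitted (adjusted p = 0.05128). RNA quality differed between the groups as well: the 3′ minus 5′ difference of the Gapdh control probe sets was -0.06 to 0.27 log2 units in NDEP lungs, against 0.12 to 0.68 in saline lungs, and with the Gapdh and Actb differences as covariates, tried after the data had been seen, 0 of 6 genes were called, with log2 fold changes of 0.29 for Ciita to 0.50 for H2-Ab1. The fat marker mean was 5.44 to 5.72 log2 intensity in NDEP lungs, against 6.21 to 6.84 in saline lungs, and the heart muscle marker mean was 7.82 to 8.40, against 8.24 to 8.98. With both means as covariates, also tried after the data had been seen, 4 of 6 genes were called, and H2-DMa missed the threshold at 0.56 (limma, adjusted p = 0.1471). The part of RNA quality and of fat or heart tissue in these differences was not tested further.

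ADEP and CDEP without OVA gave smaller differences that did not pass the test. In ADEP lungs Cd74 had intensities of 2786, 3371 and 2865 and in CDEP lungs 3277, 2897 and 3577, against the saline values above. H2-Ab1 had 918, 1139 and 1114 in ADEP lungs and 1115, 1028 and 1081 in CDEP lungs. Both particle groups lay wholly above saline for Cd74, H2-Ab1, H2-Aa and H2-DMa, and CDEP also for H2-Eb1, which makes 4 of 6 genes for ADEP and 5 of 6 for CDEP, beside 10.7% and 10.9% of all genes. With ADEP the log2 fold changes ran from 0.21 ± 0.14 for H2-Eb1 to 0.42 ± 0.14 for H2-Ab1 (SE, limma, adjusted p = 0.1231 for H2-Ab1), and 0 of 6 genes were called, against 1.65% of all genes in either direction. With CDEP they ran from 0.25 ± 0.14 for H2-Aa to 0.45 ± 0.14 for H2-Ab1 (adjusted p = 0.06303), Cd74 stood at 0.44 ± 0.13 (adjusted p = 0.05628), and 0 of 6 genes were called, against 4.04% of all genes. At an unadjusted p under 0.05 the counts were 3 of 6 genes for ADEP and 5 of 6 for CDEP, with 15.6% and 19.7% of all genes. The 3 particle comparisons share the saline mice.

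OVA alone left the class II genes close to saline. Cd74 had intensities of 2957, 2777 and 2764 in OVA lungs, against 2018, 2508 and 2680.1 in saline lungs. H2-Ab1 had 1034, 942 and 871 in OVA lungs, against 766, 817 and 784 in saline lungs. For these 2 genes and for H2-Aa, whose OVA values of 1869, 1868 and 1740.2 stood against 1683, 1630.25 and 1727 in saline, all OVA mice were above all saline mice, and 4.79% of all genes showed this. The log2 fold changes were 0.26 ± 0.14 for H2-Ab1 (SE, limma, adjusted p = 0.773) and 0.25 ± 0.13 for Cd74 (adjusted p = 0.775), and they were between 0.05 and 0.13 for H2-Aa, H2-Eb1, H2-DMa and Ciita. Neither the class II genes nor any other gene was called (0 of 6 and 0%), and at an unadjusted p under 0.05 there were 0 of 6 class II genes and 6.6% of all genes. The 95% intervals reached from -0.30 to 0.44 for Ciita and from -0.02 to 0.54 for H2-Ab1. The sign for Ciita and H2-DMa depended on the fit: with array weights the log2 fold changes were -0.06 and -0.02, and with the RNA quality covariates -0.08 for both.

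NDEP given with OVA raised H2-Ab1, H2-Eb1 and H2-DMa above OVA alone, 1.46-fold, 1.59-fold and 1.61-fold. H2-Eb1 had intensities of 1018, 1259 and 1714 in lungs of NDEP with OVA, against 881, 859 and 728 with OVA alone. H2-Ab1 read 1102, 1365 and 1767 with NDEP and OVA, against 1034, 942 and 871 with OVA. H2-DMa, the peptide exchange factor, read 286, 284 and 386 with NDEP and OVA, against 221, 191 and 178 with OVA. The third NDEP with OVA mouse was the highest for each, and the groups did not overlap. Cd74 had 3212, 4123 and 4549 in NDEP with OVA, against 2957, 2777 and 2764 in OVA. Ciita had 35.7, 36.9 and 52.7, against 25.5, 28.4 and 29.4. H2-Aa, with 1793, 2654 and 2942 in NDEP with OVA against 1869, 1868 and 1740.2 in OVA, was the 1 gene of the 6 whose groups overlapped. Separation in this direction was seen in 5 of 6 class II genes and 9.21% of all genes.

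The log2 fold changes against OVA were 0.67 ± 0.14 for H2-Eb1 (SE, limma, adjusted p = 0.009408), 0.69 ± 0.15 for H2-DMa (adjusted p = 0.01064) and 0.55 ± 0.14 for H2-Ab1 (adjusted p = 0.03054). Cd74 at 0.47 ± 0.13 (adjusted p = 0.06192), Ciita at 0.57 ± 0.18 (adjusted p = 0.1092) and H2-Aa at 0.40 ± 0.14 (adjusted p = 0.1655) did not pass. The count was 3 of 6 genes, against 1.74% of all genes called higher, and the median log2 fold change was 0.56, beside 0.02 over all genes. It was 0 of 6 without NDEP with OVA mouse 3 or OVA mouse 3, 1 of 6 without OVA mouse 2 and 5 of 6 without NDEP with OVA mouse 1. It was also 0 of 6 when the arrays of these groups were fitted alone and when heart and fat marker means were covariates, where the log2 fold changes were 0.33 to 0.64. The 3′ minus 5′ difference of the Actb control probe sets was 0.95 to 1.08 log2 units in NDEP with OVA, against 0.73 to 0.91 in OVA, and with the RNA quality covariates 5 of 6 genes were called.

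CDEP given with OVA raised 4 of the 6 genes above OVA alone, among them Ciita, the activator. Ciita had intensities of 56.3, 49.4 and 35.4 in CDEP with OVA lungs, against 25.5, 28.4 and 29.4 in OVA lungs, a 1.66-fold difference. H2-DMa had 372, 336 and 218, against 221, 191 and 178 in OVA, or 1.53-fold. H2-Ab1 had 1452, 1446 and 1176, against 1034, 942 and 871 in OVA, or 1.43-fold. The third CDEP with OVA mouse was the lowest for each, and for H2-DMa it fell inside the OVA range. H2-Eb1 had 1275, 1147 and 1065 with CDEP and OVA, against 881, 859 and 728 with OVA, or 1.41-fold. Cd74, with 4115, 4109 and 3124 against 2957, 2777 and 2764 in OVA, and H2-Aa, with 2516, 2482 and 1958 against 1869, 1868 and 1740.2 in OVA, were wholly above OVA but did not pass the test. Separation was seen in 5 of 6 class II genes and 12.8% of all genes.

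In log2 terms Ciita changed by 0.73 ± 0.18 (SE, limma, adjusted p = 0.01492), H2-DMa by 0.62 ± 0.15 (adjusted p = 0.01343), H2-Ab1 by 0.51 ± 0.14 (adjusted p = 0.02712) and H2-Eb1 by 0.50 ± 0.14 (adjusted p = 0.03999). Cd74 stood at 0.41 ± 0.13 (adjusted p = 0.08001) and H2-Aa at 0.34 ± 0.14 (adjusted p = 0.1965). The share of all genes called higher was 3.62%, and the median log2 fold change was 0.51 over the 6 genes and -0.01 over all genes. Leaving out CDEP with OVA mouse 1 or 2, or OVA mouse 2, brought the count to 0 of 6, leaving out OVA mouse 3 to 1, and leaving out CDEP with OVA mouse 3 to 5. The Actb 3′ minus 5′ difference was 0.85 to 1.23 log2 units in CDEP with OVA, against 0.73 to 0.91 in OVA. With the RNA quality covariates Cd74 gained a call (limma, adjusted p = 0.01128). Heart muscle markers differed most clearly here, with means of 7.24 to 7.61 log2 intensity in CDEP with OVA, against 8.14 to 8.36 in OVA. With heart and fat marker means as covariates the count was 0 of 6 at log2 fold changes of 0.32 to 0.68.

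ADEP given with OVA did not pass the test for any of the 6 genes. Cd74 had intensities of 3128, 3657 and 3322 in ADEP with OVA lungs, against 2957, 2777 and 2764 in OVA lungs, and Ciita had 34.9, 42.3 and 38.6, against 25.5, 28.4 and 29.4 in OVA lungs. These 2 genes and H2-DMa, with 231, 273 and 262 against 221, 191 and 178 in OVA, did not overlap, beside 11.1% of all genes. The I-A and I-E chains overlapped with OVA. Log2 fold changes were 0.47 ± 0.18 for Ciita (SE, limma, adjusted p = 0.2692), 0.38 ± 0.15 for H2-DMa (adjusted p = 0.2949), 0.25 ± 0.13 for Cd74, 0.21 ± 0.14 for H2-Eb1, 0.12 ± 0.14 for H2-Ab1 and 0.04 ± 0.14 for H2-Aa. The count was 0 of 6, against 0.686% of all genes in either direction, and 2 of 6 at an unadjusted p under 0.05, with 11.4% of all genes. Leaving out single arrays turned the sign for H2-Aa and H2-Ab1. The 3 comparisons with OVA share the OVA mice.

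**Figure D2:**
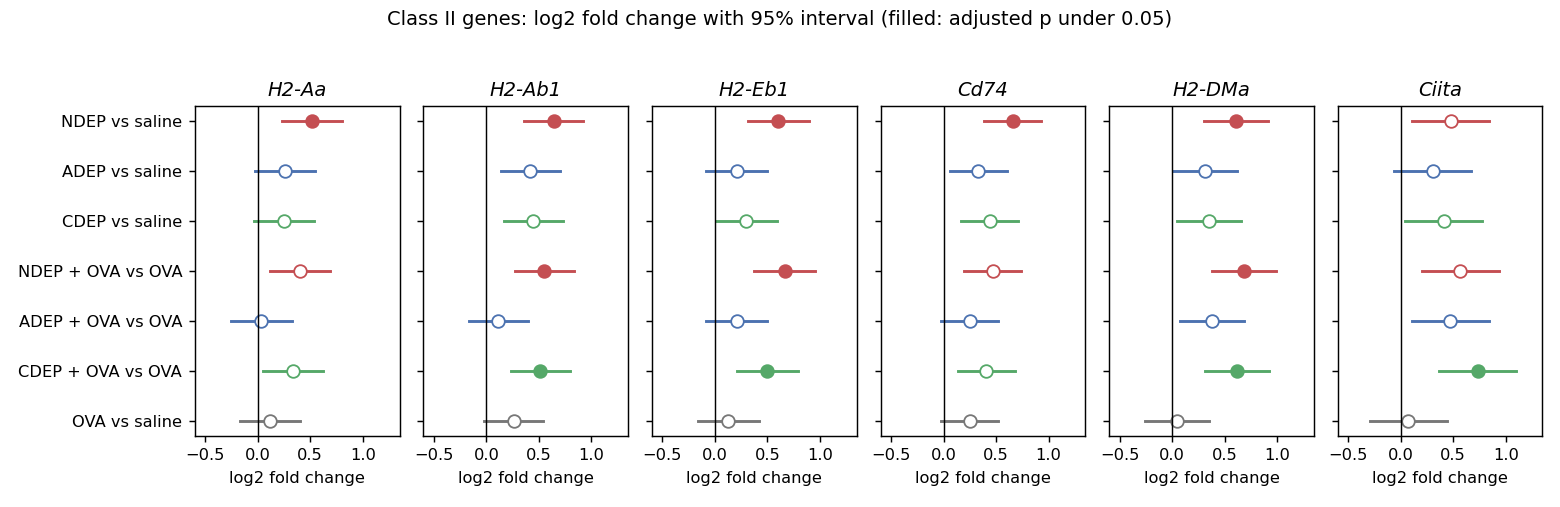
Log2 fold change (horizontal axis) of each gene in the comparisons with saline and with OVA, as points with 95% intervals from the limma fit on 8 groups of 3 mice, and filled where the adjusted p was under 0.05. Filled points stand in the rows of NDEP against saline (5 genes), NDEP with OVA against OVA (3 genes) and CDEP with OVA against OVA (4 genes), and every point lies to the right of 0.

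Adding OVA to a particle did not pass the test for any of the 6 genes. With CDEP, all 6 were nominally higher when OVA was present, by log2 fold changes of 0.21 ± 0.14 for H2-Aa to 0.40 ± 0.18 for Ciita (SE, limma, lowest adjusted p = 0.1604 for H2-Ab1). The count was 0 of 6, against 3.58% of all genes, and 4 of 6 at an unadjusted p under 0.05, with 21.4% of all genes. H2-Ab1 had intensities of 1452, 1446 and 1176 in CDEP with OVA against 1115, 1028 and 1081 in CDEP, and it and H2-Eb1 were the genes without overlap, beside 13.5% of all genes. With NDEP the log2 fold changes on adding OVA ran from 0.01 ± 0.14 for H2-Aa to 0.19 ± 0.14 for H2-Eb1, and with ADEP from -0.10 ± 0.14 for H2-Aa to 0.24 ± 0.18 for Ciita. Each had 0 of 6 called, against 0.274% and 0.0646% of all genes, and 0 of 6 at an unadjusted p under 0.05, with 9.64% and 9.95% of all genes. No gene of the 6 was without overlap in either, beside 5.16% and 8.29% of all genes. Averaged over the 4 backgrounds, OVA moved the genes by 0.06 ± 0.07 for H2-Aa to 0.22 ± 0.09 for Ciita (lowest adjusted p = 0.1686 for H2-Eb1), with 0 of 6 called, against 2.47% of all genes, and 4 of 6 at an unadjusted p under 0.05, with 15.4% of all genes.

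Whether a particle acted differently in the presence of OVA was tested as an interaction, and 0 of 6 genes were called for any particle. All genes were called at 0.0242% for NDEP, 0.0242% for ADEP and 0.371% for CDEP. At an unadjusted p under 0.05 there were again 0 of 6, with 6.16%, 10.4% and 12.7% of all genes. The estimates were wide: for Ciita and CDEP the interaction was 0.32 with a 95% interval of -0.20 to 0.84, and for Cd74 and NDEP it was -0.19 with an interval of -0.57 to 0.19. So NDEP calling 5 genes without OVA and 3 with it, or CDEP calling none without OVA and 4 with it, was not shown to be a difference between the settings.

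The particles were also compared with each other, in 6 pairs, and 0 of 6 genes were called in each. With OVA, CDEP stood above ADEP for all 6, by 0.16 ± 0.13 for Cd74 to 0.40 ± 0.14 for H2-Ab1 (SE, limma, adjusted p = 0.1133), where 1.43% of all genes were called. ADEP stood below NDEP for all 6 with OVA, with log2 differences of -0.09 ± 0.18 for Ciita to -0.46 ± 0.14 for H2-Eb1 (adjusted p = 0.2413), where 0.0161% of all genes were called. CDEP and NDEP with OVA differed by -0.17 (95% interval -0.46 to 0.12) for H2-Eb1 to 0.17 (-0.20 to 0.54) for Ciita, beside 0.00807% of all genes. Without OVA, ADEP stood below NDEP with log2 differences of -0.17 ± 0.18 for Ciita to -0.40 ± 0.14 for H2-Eb1, where 0.00807% of all genes were called. CDEP stood below NDEP with log2 differences of -0.06 ± 0.18 for Ciita to -0.31 ± 0.14 for H2-Eb1, and CDEP differed from ADEP by -0.01 ± 0.14 for H2-Aa to 0.11 ± 0.13 for Cd74, with 0% of all genes called in both. At an unadjusted p under 0.05 the counts, in the order of this paragraph, were 3, 4, 0, 2, 1 and 0 of 6, with 21.2%, 10.8%, 7.33%, 4.56%, 5.92% and 6.68% of all genes.

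Other probe sets of 3 of the genes were set beside the chosen ones. The second H2-Aa probe set correlated with the first at r = 0.82 over the 24 arrays, the 3 H2-Ab1 probe sets at 0.85 to 0.96 and the 2 for Ciita at 0.59, as a description over arrays that share groups. In NDEP against saline the other H2-Ab1 probe sets gave log2 fold changes of 0.77 and 0.91 and the other H2-Aa probe set 0.71, each called in a fit over all probe sets, in which the chosen H2-Aa probe set missed the threshold (limma, adjusted p = 0.05397). In CDEP with OVA against OVA the other H2-Ab1 probe sets gave 0.54 and 0.56 (limma, adjusted p = 0.09462 and 0.09459), and the dimmer Ciita probe set gave 0.43 (adjusted p = 0.1577), so these calls rested on the brightest probe set. In NDEP with OVA against OVA they were 0.53 and 0.48 for H2-Ab1 (adjusted p = 0.1706 and 0.2672). A single H2-Ab1 probe set was called for CDEP against saline, at 0.79 (adjusted p = 0.01921). The chosen H2-Aa and H2-Ab1 probe sets carry the maker's suffixes for probes that can match several transcripts, so a share of their signal may belong to related genes.

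The rest of the class II machinery was counted over a list of 9 measured genes that includes the 6. With NDEP 7 of 9 were called higher than saline, beside 2.25% of all genes, the 2 further genes being H2-DMb2, the partner chain of H2-DMa, at 0.76 ± 0.15 (SE, limma, adjusted p = 0.004733), and H2-Ea, the alpha chain of I-E, at 0.66 ± 0.14 (adjusted p = 0.007944). H2-Oa, a chain of the H2-DM inhibitor H2-O, was at 0.08 ± 0.12. In NDEP with OVA against OVA 3 of 9 were called, beside 1.74% of all genes, and H2-DMb2 and H2-Ea were at 0.26 and 0.45 without passing. In CDEP with OVA against OVA 4 of 9 were called, beside 3.62% of all genes, and these 4 were among the 6.

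Some enzymes that prepare the peptide were called higher as well. Of 12 endosomal processing genes, 5 were called higher with NDEP than with saline, 1 with ADEP, 2 with CDEP and 0 with OVA. With OVA present the counts were 4 for NDEP, 0 for ADEP and 4 for CDEP, and none was called lower in any of these. In the same order, the shares of all genes were 2.25% called higher, 1.65%, 4.04% and 0% called in either direction, and with OVA present 1.74% higher, 0.686% in either direction and 3.62% higher. Ctss, the cathepsin that removes the last part of the invariant chain in antigen presenting cells, was 0.75 ± 0.20 above OVA with NDEP and OVA (SE, limma, adjusted p = 0.04345) and 0.68 ± 0.20 with CDEP and OVA (adjusted p = 0.04472), but 0.35 ± 0.20 with NDEP against saline (adjusted p = 0.4006). Ctsz, another lysosomal cathepsin, was called in 4 comparisons, at 0.72 for NDEP and 0.59 for CDEP against saline and at 0.72 for NDEP and 0.61 for CDEP with OVA against OVA. Ctsc rose by 0.63, 0.51 and 0.61 with NDEP, ADEP and CDEP against saline. Ifi30, a thiol reductase that unfolds antigen, rose by 0.52 with NDEP and by 0.55 with NDEP and OVA. The median over the 12 genes was 0.45 with NDEP and 0.38 with NDEP and OVA.

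The genes that act upstream of class II transcription were counted in 2 lists. The first held 8 genes: factors of the X and Y boxes (Rfx5, Rfxank, Rfxap, Nfya, Nfyb, Nfyc and Creb1) and the co-activator Crebbp. None of these 8 was called against saline or OVA, with list medians between -0.10 and 0.05. Against saline, 2.25% of all genes were called higher with NDEP, and 1.65%, 4.04% and 0% in either direction with ADEP, CDEP and OVA. Against OVA, the shares were 1.74% higher with NDEP, 0.686% in either direction with ADEP and 3.62% higher with CDEP. At such shares a count of 0 of 8 is no result about these genes. Ifng, the cytokine itself, was below the 25th percentile on all 24 arrays, so no change was read from it. Of 10 genes from interferon gamma to Ciita, 0 were called with NDEP, ADEP, CDEP or OVA against saline and 0 with NDEP and OVA. These counts stand beside the same low shares of all genes. With CDEP and OVA 5 were called higher than OVA, beside 3.62% of all genes. Socs1, a feedback inhibitor, rose by 0.77 ± 0.15 (SE, limma, adjusted p = 0.002023) and the transcription factor Irf1 by 0.60 ± 0.14 (adjusted p = 0.009223). The others were Jak2 at 0.46 ± 0.11, the receptor chain Ifngr2 at 0.54 ± 0.13 and Irf8 at 0.52 ± 0.13. Irf1 was 0.05 ± 0.14 with NDEP against saline (adjusted p = 0.9133) and 0.32 ± 0.14 with NDEP and OVA against OVA (adjusted p = 0.3152). Ifngr2 was also called with ADEP and OVA, at 0.54.

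Class I presentation gave its highest counts with CDEP and OVA. There 8 of 14 genes were called higher than OVA, beside 3.62% of all genes, with a list median of 0.50. Among them were the peptide transporter genes Tap1 at 1.14 ± 0.20 (SE, limma, adjusted p = 0.00116) and Tap2 at 0.87 ± 0.17, and the immunoproteasome subunit Psmb8 at 0.84 ± 0.17. With NDEP and OVA 2 of 14 were called, beside 1.74% of all genes called higher. These were the chaperone Calr at 0.54 and the disulfide isomerase Pdia3 at 0.51, and Tap1 stood at 0.48 without passing. Against saline 2 of 14 were called with NDEP, 1 with ADEP and 2 with CDEP, Pdia3 among them each time. In the same order, 2.25% of all genes were called higher, and 1.65% and 4.04% in either direction. Of 10 co-stimulation genes, the inhibitory ligand Cd274 was called with CDEP and OVA at 1.53 ± 0.23 (adjusted p = 0.00016), Icosl was called with NDEP at 0.43 ± 0.09 (adjusted p = 0.01165), and Cd80 and Cd86 were not called in any of the 7 comparisons. Cd83, which keeps class II molecules on the cell surface, was 0.84 ± 0.18 above OVA with NDEP and OVA and 0.86 ± 0.18 with CDEP and OVA. Mif, the cytokine that binds Cd74, was called with NDEP, ADEP and CDEP against saline, at 0.58, 0.54 and 0.63.

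**Figure D3:**
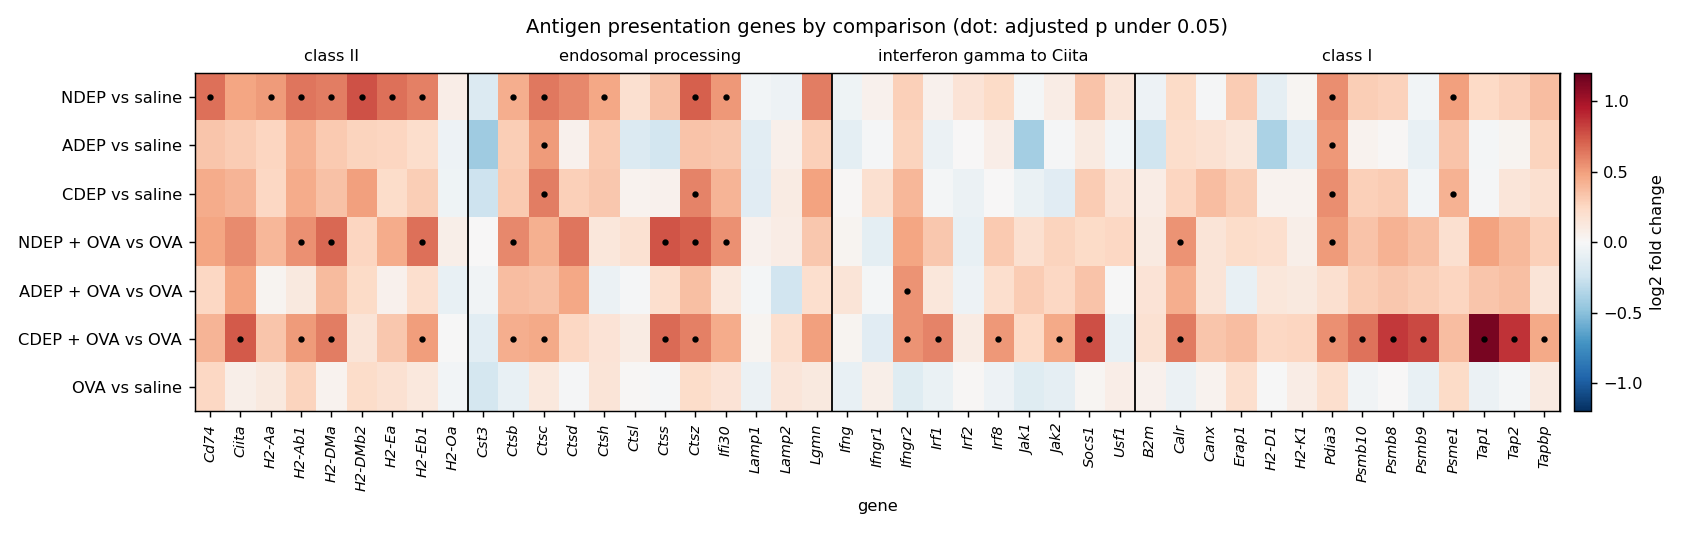
Log2 fold change (colour) of the measured genes of 4 lists, in columns, in 7 comparisons, in rows, with a dot where the adjusted p was under 0.05. The class II block has its dots in the rows of NDEP, NDEP with OVA and CDEP with OVA, and the interferon gamma and class I blocks have most of theirs in the row of CDEP with OVA.

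In whole lung, more cells that carry class II molecules and more class II RNA per cell cannot be told apart. Some markers of such cells were called in the same comparisons as the 6 genes, and some in comparisons where none of the 6 was called. Of 17 macrophage markers, 6 were called higher with NDEP than with saline, 7 with NDEP and OVA and 7 with CDEP and OVA than with OVA, and 0 were called lower. In the same order, 2.25%, 1.74% and 3.62% of all genes were called higher. With CDEP and ADEP against saline, where no class II gene was called, 3 and 1 of the macrophage markers were called higher. There 4.04% and 1.65% of all genes were called in either direction. The complement gene C1qb rose by 1.13 ± 0.16 with NDEP (SE, limma, adjusted p = 0.000177), and Chil3, a product of alveolar macrophages, rose by 2.32 ± 0.33 with NDEP and OVA (adjusted p = 0.0002132) and by 2.43 ± 0.33 with CDEP and OVA (adjusted p = 6.442e-05). The mean over the 17 markers was 7.40 to 7.99 log2 intensity in NDEP with OVA, 7.48 to 7.69 in CDEP with OVA and 7.30 to 7.44 in ADEP with OVA, against 6.98 to 7.18 in OVA, and it was 7.61 to 7.70 in NDEP, 7.23 to 7.26 in ADEP and 7.39 to 7.41 in CDEP, against 7.12 to 7.16 in saline. Of these markers 14 were above the 25th percentile on all 24 arrays, and Siglecf was above it on none.

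Of 13 dendritic cell markers, 3 were called higher with NDEP, 0 with ADEP and 1 with CDEP than with saline, and with OVA present 5 with NDEP, 3 with ADEP and 5 with CDEP. In the same order, the shares of all genes were 2.25% called higher, then 1.65% and 4.04% in either direction. With OVA present they were 1.74% higher, 0.686% in either direction and 3.62% higher. No class II gene was called with ADEP and OVA. Flt3, a growth factor receptor of dendritic cells and their precursors, averaged 6.92 log2 intensity in NDEP, against 6.96 in saline, and 6.77 in CDEP with OVA, against 6.83 in OVA, and was not called. Of the 13 markers, 11 were above the 25th percentile on all arrays. Itgax, the integrin CD11c, which lung macrophages also carry, rose by 1.24 ± 0.19 with NDEP and OVA (SE, limma, adjusted p = 0.000486) and by 0.85 ± 0.19 with CDEP and OVA. Ccl17, a chemokine of activated dendritic cells, rose by 1.14 ± 0.18 with NDEP. The mean over the 13 was 6.22 to 6.55 in NDEP with OVA, 6.29 to 6.34 in ADEP with OVA and 6.15 to 6.37 in CDEP with OVA, against 5.92 to 6.01 in OVA. Without OVA it was 6.19 to 6.31 in NDEP, 6.04 to 6.08 in ADEP and 6.12 to 6.19 in CDEP, against 5.84 to 5.99 in saline. Of 10 B cell markers, Fcer2a, the low affinity IgE receptor, was the 1 gene called, at 0.88 with NDEP and 0.76 with CDEP against saline and at 0.85 with NDEP and 0.71 with CDEP, both with OVA, against OVA. It was not called in the other 3 comparisons, and the list medians were -0.04 to 0.15 in the 7 comparisons. B cell means of 5.80 to 6.14 in NDEP with OVA overlapped with 5.69 to 6.06 in OVA, and those of 5.93 to 6.06 in NDEP overlapped with 5.53 to 6.12 in saline. Of 11 genes listed as alveolar type 2 markers, 4 were called higher with NDEP, 3 with ADEP and 4 with CDEP than with saline, and 0 in the comparisons with OVA. In the order of the saline comparisons, 2.25% of all genes were called higher, and 1.65% and 4.04% in either direction. This list includes Ager, a marker of alveolar type 1 cells. Its mean was 10.71 to 11.33 log2 intensity in saline. The lowest mouse stood at 11.36 in OVA, 11.47 in NDEP, 11.36 in ADEP and 11.44 in CDEP. All saline mice were thus below all mice of these groups for this list. The particle groups with OVA overlapped with OVA, and their lowest mice stood at 11.47 with NDEP, 11.06 with ADEP and 11.30 with CDEP. Means of 7 monocyte markers were 6.22 to 6.50 log2 intensity in NDEP with OVA and 6.28 to 6.74 in CDEP with OVA, overlapping with 6.18 to 6.39 in OVA. In ADEP with OVA they were 6.47 to 6.74. Without OVA they were 6.52 to 6.67 in NDEP, 6.43 to 6.53 in ADEP and 6.50 to 6.58 in CDEP, against 6.29 to 6.44 in saline. The part of cell numbers in the class II differences was not tested.

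A mean z score, the average over the 6 genes of log2 intensity scaled within each gene across arrays, was formed for each mouse. Over the 24 arrays it correlated with the mean of the macrophage markers at r = 0.90 and with that of the dendritic cell markers at 0.88. Within groups, after each group mean was removed, these values were 0.71 and 0.83. The correlation was 0.59 with B cell markers (0.65 within groups), 0.58 with the alveolar type 2 list that includes Ager (0.42) and 0.54 with T cell markers (0.63). It was 0.40 with 7 monocyte markers (0.32) and 0.56 with the leukocyte marker Ptprc (0.35). The correlation was 0.92 with the endosomal processing genes (0.79), 0.79 with the genes from interferon gamma to Ciita (0.72) and -0.62 with heart muscle markers (-0.06). With the RNA quality difference of Gapdh it was -0.09, and -0.44 within groups. These are descriptions, since the arrays share groups and each point shares 1 RNA sample between its 2 values.

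**Figure D4:**
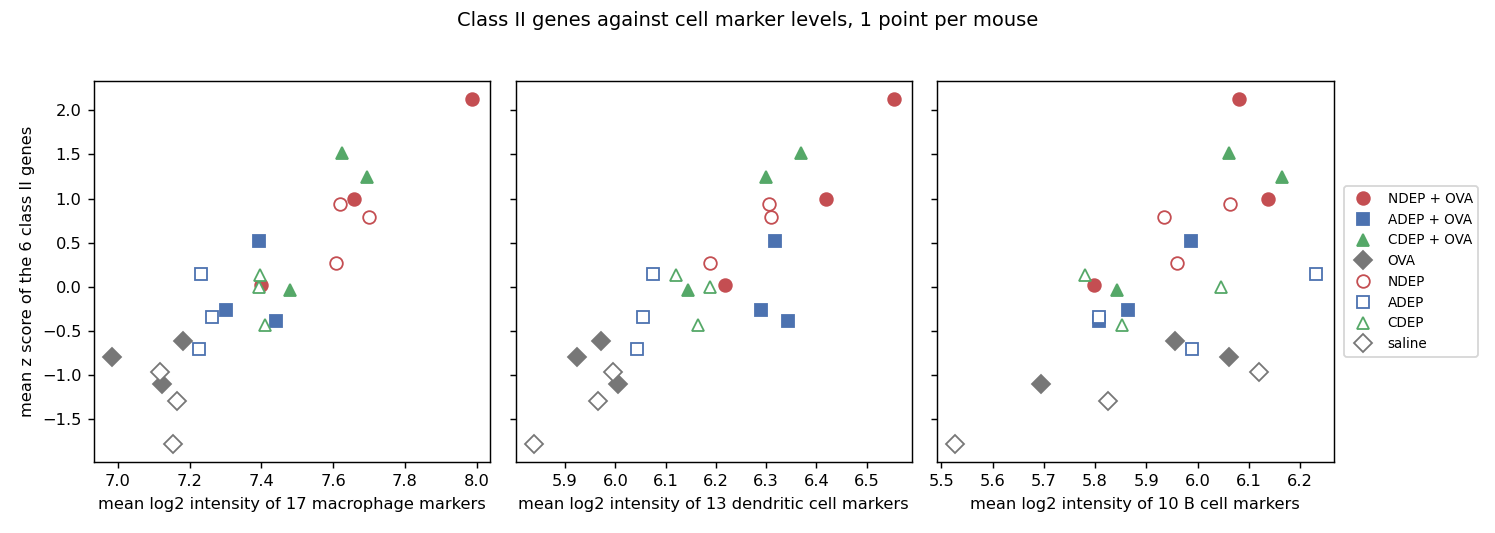
Mean z score of the 6 class II genes (vertical axis) against the mean log2 intensity of macrophage, dendritic cell and B cell markers (horizontal axes), with 1 point per mouse and 8 groups. The highest class II score, 2.13, belongs to the third mouse of NDEP with OVA, which is also highest on the macrophage and dendritic cell axes, and the lowest, -1.78, to the first saline mouse.

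The 6 genes also varied together. Over the 24 arrays the log2 intensities of H2-Ab1 and H2-Eb1 correlated at r = 0.94, H2-Aa and H2-Ab1 at 0.91, and Cd74 and H2-DMa at 0.91. Ciita correlated at 0.89 with Cd74 and at 0.65 with H2-Aa, and within groups at 0.85 and 0.44. Irf1 correlated with the 6 genes at 0.35 to 0.66. Among the other genes measured, the 6 whose pattern over the 24 arrays was most like the mean z score were Cd48, Lgals3, Ctsz, Hcls1, Mmp12 and Coro1a, at r = 0.91 to 0.89. Since these genes were picked for that likeness on the same arrays, their calls are a description. Cd48, a surface protein of leukocytes, was called in NDEP against saline at 0.79 ± 0.17, in NDEP with OVA against OVA at 0.80 ± 0.17 and in CDEP with OVA against OVA at 0.79 ± 0.17 (SE, limma, adjusted p = 0.01179, 0.01151 and 0.007793). Mmp12, a macrophage elastase, rose by 1.46 ± 0.28, 1.97 ± 0.28 and 1.84 ± 0.28 in the same 3 comparisons. For H2-Aa the most similar gene was H2-Ea at r = 0.93, and for Ciita it was Fkbp11, a peptidyl-prolyl isomerase of the secretory pathway, at 0.90.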

How the data were processed

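Lung RNA of 24 mice was labelled with biotin from 2 ug total RNA and hybridised to 1-colour Affymetrix arrays, per the labels' protocols. The deposited values are probe set intensity values normalized between arrays with RMA, per the submitters' processing notes, with version and settings not given in the sources used here. They ran from 5.98 to 18195.5, on a linear scale, so log2 was taken first. Spot background was not analysed here, so dim genes near an array's 25th percentile, Ciita among them, may not exceed it. Groups come from the sample titles, and the labels say biological replicates.

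Of 22690 probe sets, 20380 had 1 symbol in the platform annotation, which can be old, and the one with the highest mean was kept for each of 12393 genes. limma 3.58.1 in R 4.3.3 fitted 8 group means to all 24 arrays (16 residual and 8.16 prior degrees of freedom). Moderated two-sided tests were adjusted by Benjamini-Hochberg over all genes within each of 20 comparisons and 1 F test, at an adjusted p of 0.05. The fit was tested on simulated data. The number of arrays limits precision, and intervals are 95%. The 6 genes, the lists and the alternatives were chosen with earlier results of these data known. Genes named outside the 6 are up to 4 with the smallest p of a list in the comparison described, Ifng, Irf1 and Ctss always, and the 6 most like the mean pattern (3 for each gene). Named after their values were seen were H2-Oa, Irf8, Cd80, Cd86, Siglecf, Ptprc, Ifi30 with NDEP, and H2-DMb2, H2-Ea and Tap1 with NDEP and OVA. Alternatives were other sets of arrays, a filter on dim probe sets, a second normalization, all probe sets, array weights, a trended variance, a replicate block and 2 added covariate fits. Tables were joined in Python 3.11.15 (pandas 2.3.3, numpy 2.4.6) and plotted with matplotlib 3.10.9.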

Additional observations from a re-analysis of the deposited data

How the results depend on the processing

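Counts are of the 6 class II genes called by limma at an adjusted p of 0.05. No consistent pairing of the mice by the replicate numbers of the labels was seen: same-numbered deviations correlated at -0.3226 to 0.3543, over 0.1 in 27 of 84 pairs. These correlations cannot exclude a pairing between some of the groups. The replicate block gave 5 called for NDEP against saline, 3 for NDEP with OVA and 4 for CDEP with OVA against OVA, and 5 for any difference among the 8 groups, as without it, and 0 elsewhere. Array weights gave 1 for ADEP and 1 for CDEP against saline, 6 for NDEP with OVA against OVA and 1 for OVA averaged. Fitting only the compared groups gave 1 for CDEP against saline and 0 for NDEP with OVA against OVA. A second quantile normalization gave 2 for CDEP with OVA against OVA. Counts that shifted less are not listed for each fit. For CDEP with OVA against OVA, Cd74 gained a call with array weights (limma, adjusted p = 0.01394) and with RNA quality covariates (limma, adjusted p = 0.01128). H2-DMa lost its call there when only the compared groups were fitted (limma, adjusted p = 0.07778). Heart and fat marker covariates gave 0 for any difference, 0 for NDEP with OVA and 0 for CDEP with OVA against OVA. RNA quality covariates gave 0 for NDEP against saline and 5 for NDEP with OVA against OVA. Both covariate fits were added after the data had been seen. Leaving out single arrays gave 1 to 5 for NDEP and 0 to 2 for CDEP against saline, 0 to 5 for NDEP with OVA and 0 to 5 for CDEP with OVA against OVA, 0 to 1 for CDEP with OVA against CDEP and 0 to 1 for OVA averaged. For any difference among the 8 groups, leaving out single arrays gave 4 to 6. The cause of these shifts was not tested.

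Some small fold changes changed sign, and none of them passed the test in any fit. For OVA against saline, Ciita was -0.0578 with array weights, -0.0754 with RNA quality covariates and -0.1302 to 0.2053 without single arrays. H2-DMa was -0.0178, -0.0757 and -0.0392 to 0.114 in the same fits. For ADEP with OVA against OVA, H2-Aa was -0.0954 with heart and fat covariates and -0.074 to 0.1023 without single arrays, and H2-Ab1 was -0.0093 to 0.1951. Of 1578 refits of single genes against saline, against OVA or for OVA averaged, 9 had the other sign, 68 lost a call and 23 gained one. In the other comparisons 78 of 2376 had the other sign. The 3 mice per group and the dim signal of Ciita limit what these arrays can resolve.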

Other observations

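Within groups, the mice that stood apart did so for most of the 6 genes at once. The mean z score of the 6 genes was 0.03, 1.00 and 2.13 in the 3 mice given NDEP with OVA, and 1.51, 1.24 and -0.04 in those given CDEP with OVA, against -0.61, -0.80 and -1.10 in OVA. In NDEP it was 0.94, 0.79 and 0.27, in ADEP -0.70, 0.15 and -0.34 and in CDEP 0.00, -0.43 and 0.13, against -1.78, -1.29 and -0.97 in saline. The macrophage marker mean of the same NDEP with OVA mice was 7.40, 7.66 and 7.99 log2 intensity, and their fat marker mean was 4.51, 6.35 and 5.80.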
